A study of Mus musculus with 8 samples.

Results

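The genes described here encode the acute phase, complement and coagulation proteins that the liver secretes into plasma, together with Socs3, Stat3 and Il1r1 of the cytokine pathways that drive the acute phase. They were taken from a list of 59 mouse genes: 23 acute phase genes, 16 complement genes and 20 coagulation genes. A gene was measured where a probe whose RefSeq accession maps to its symbol was well above background on 4 or more of the 8 arrays, and its brightest such probe was used. By this rule 58 of the 59 were measured, among 24924 genes or transcripts in all, and each of the 58 was well above background on all 8 arrays. The remaining gene, A2m, which encodes a broad protease inhibitor, has 1 probe on the array, well above background on 1 array, and has no value here.

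The samples are livers of female B6C3F1 mice. The treated group received furan, a volatile heterocyclic liver toxicant, at 8 mg/kg body weight by oral gavage in corn oil on each of 21 days (4 mice, replicates 41, 42, 43 and 44). The vehicle group received corn oil alone (4 mice, replicates 2, 3, 4 and 6). All livers were collected 4 h after the last dose and snap frozen, and each mouse was hybridised to 1 one-colour Agilent 60-mer array of the same 8-array slide. Each level below is the log2 of the background-corrected intensity minus the 75th percentile of that array, so a level of 0 equals the upper quartile of all probes on the array. Differences are furan minus vehicle on this log2 scale, and levels are not compared between genes because each probe has its own brightness.

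In the acute phase response, cytokines such as interleukin-6 and interleukin-1 act on hepatocytes through STAT3, NF-kB and C/EBP factors and raise the output of serum amyloid A, haptoglobin, orosomucoid, fibrinogen and other plasma proteins. Complement is a cascade of plasma proteases in which lectin, classical and alternative routes meet at C3 cleavage and end in the membrane attack complex. Coagulation is a second such cascade, in which the contact factors and factor VII lead to thrombin and the conversion of fibrinogen to fibrin, held in check by protein C, protein S and serpin inhibitors. Hepatocytes make most of the proteins in all 3 systems, several of which (C3, factor B, fibrinogen) are themselves acute phase reactants.

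The arrays were of similar brightness apart from vehicle replicate 2. On that array 86.2% of spots were well above background and the median processed intensity was 130, against 55.1% to 69.4% and 32.5 to 48.2 on the other 7. Hepatocyte markers, albumin among them, were measured for 8 of 8 genes. Albumin itself differed by -0.02 ± 0.17 (SE; limma, Benjamini-Hochberg adjusted p = 0.955). The position on the slide did not separate the groups, since each slide row held 2 furan and 2 vehicle arrays and each of the 4 columns held 1 of each. Precision throughout is set by having 4 arrays in each group.

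No member of the 3 systems differed between furan and vehicle livers at an adjusted p under 0.05: 0 of 58 passed in limma with Benjamini-Hochberg adjustment over all 24924, where 4.18% of everything tested did (2.86% higher and 1.31% lower in furan livers). At an unadjusted p under 0.05, 17 of the 58 differed, 6 higher and 11 lower in furan livers, against 23.8% of everything tested (12.3% higher and 11.5% lower). The 6 higher genes are the serum amyloids Saa1, Saa2 and Saa3, the iron-binding lipocalin Lcn2, the serpin Serpina3m and the transcription factor Stat3. The 11 lower ones are Lbp, Orm3, C2, Cfb, Serping1, F5, F7, F11, Proc, Pros1 and Klkb1. The smallest adjusted p was 0.0555, for Saa2.

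The differences were small. Over the 58 members the median log2 fold change was -0.08 and the median size was 0.13, against -0.09 and 0.24 over everything tested. The median SE was also smaller, at 0.12 against 0.15, and its part in the smaller size was not tested. Of everything tested, 15076 had a gene symbol. Over those the median was -0.01 and the median size 0.22, and 7709 differences were negative. For 40 of the 58, the 95% interval lay wholly within a 1.5-fold difference in either direction, as it did for 11584 of all 24924. These counts are for the 75th percentile scaling. Of the 58 differences 39 were negative, against 15002 of all 24924, and 27 lay below the median of everything tested. That last count rested on the scaling: 43 lay below it with quantile normalisation, 39 with normexp correction and 48 in the authors' deposited table. The normexp setting, here and below, corrected the background of median spot intensities and then applied quantile normalisation. Shifting each array by its median in place of its 75th percentile moved the median of everything tested by 0.49, to 0.39, and left 2 of 58 members negative. The array medians used for that shift were 130 on vehicle replicate 2 and 32.5 to 48.2 on the other arrays. The median shift and no shift move every gene by the same amount, so a gene's place relative to the rest is the same as in the values reported here. A fold of 1.5 or more was reached by 5 members, Saa1, Saa2, Saa3 and Lcn2 on the higher side and Orm3 on the lower side, and by 16.7% of everything tested. In bulk liver, a lower level can come from fewer cells of a type or from less RNA per cell, and these cannot be told apart.

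**Figure D1:**
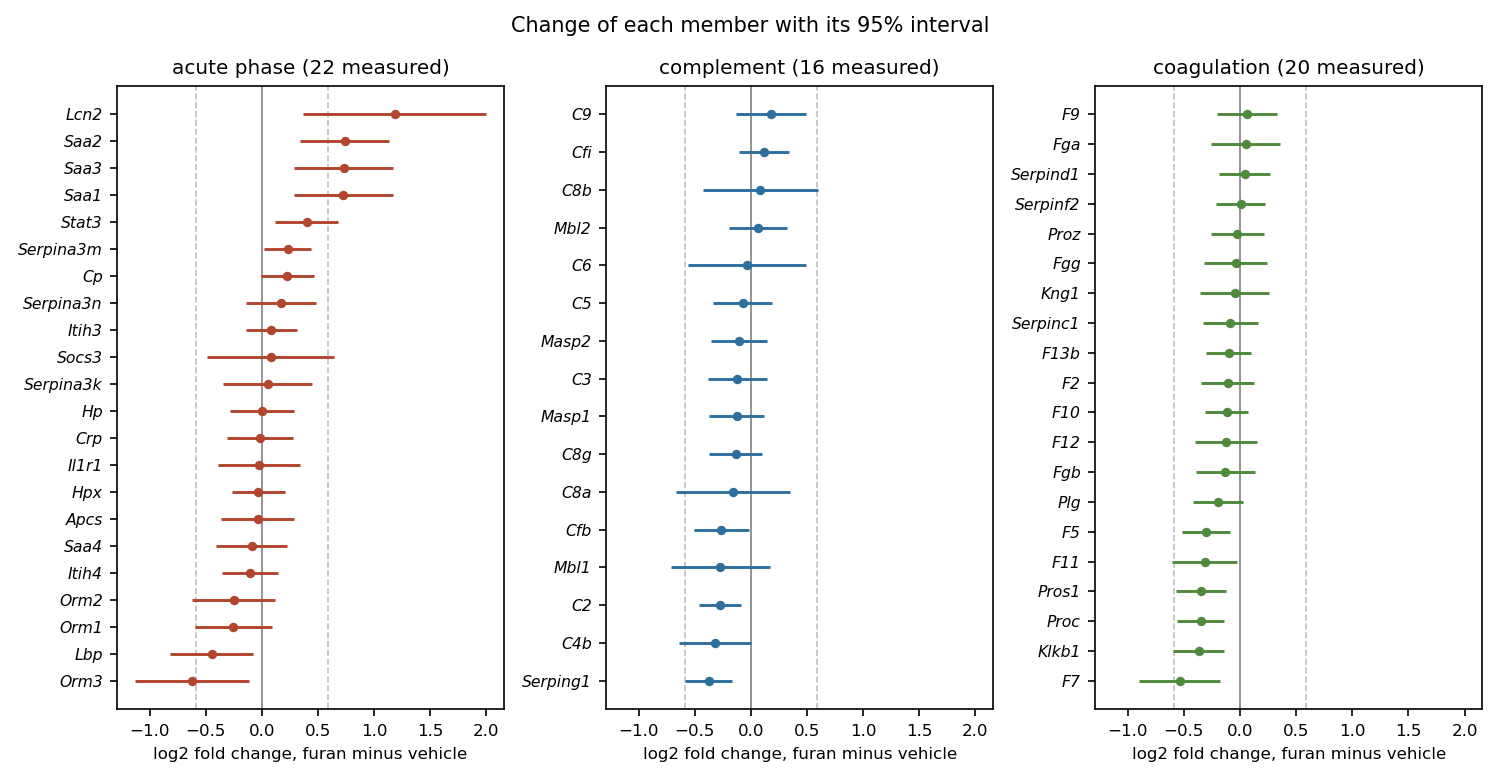
Log2 fold change (furan minus vehicle, x axis) of each of the 58 measured members with its 95% limma interval, in 1 panel per system; dashed lines mark a 1.5-fold difference. Lcn2 and the 3 serum amyloids Saa1, Saa2 and Saa3 lie beyond the upper line, and most complement and coagulation genes lie between 0 and the lower line.

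The serum amyloid A genes encode apolipoproteins of high-density lipoprotein. Saa1 and Saa2 are the hepatic forms that respond to cytokines, Saa3 is the form known from macrophages and adipose tissue as well as liver, and Saa4 is the constitutive form. Saa1 was at 5.86, 5.86, 5.61 and 5.23 in furan livers, against 4.68, 5.11, 5.21 and 4.67 in vehicle livers. Saa2 was at 5.46, 5.63, 5.43 and 4.99 in furan livers, against 4.61, 4.78, 4.84 and 4.33 in vehicle livers. Every furan array lay above every vehicle array for both genes, with the lowest furan value of Saa1 0.02 above the highest vehicle value. The difference was 0.73 ± 0.19 for Saa1 (SE; 1.65-fold, adjusted p = 0.0735 by limma) and 0.74 ± 0.17 for Saa2 (1.67-fold, adjusted p = 0.0555). Because the 2 genes are near-identical copies, their probes may bind each other's transcripts, and the pair may carry 1 signal.

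Saa3 was at 1.79, 2.17, 2.52 and 1.90 in furan livers, against 1.17, 1.39, 1.70 and 1.20 in vehicle livers. These groups also did not overlap, and the difference was 0.73 ± 0.19 (1.66-fold, adjusted p = 0.0730 by limma). Saa4, in contrast to the inducible forms, was at 4.76, 5.24, 5.11 and 4.88 in furan livers, against 4.95, 5.31, 5.12 and 4.98 in vehicle livers. Its groups overlapped, with a difference of -0.09 and a 95% interval of -0.41 to 0.22. Within slide rows 1 and 2, the furan minus vehicle difference was 0.75 and 0.70 for Saa1, 0.74 and 0.74 for Saa2, and 1.03 and 0.43 for Saa3.

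Lipocalin 2, which withholds iron from bacteria by binding their siderophores, showed the largest difference among the 58. Lcn2 was at 3.02, 4.13, 2.55 and 2.63 in furan livers, against 1.84, 2.33, 1.86 and 1.57 in vehicle livers. The groups did not overlap, and furan replicate 42 stood 1.11 above the next furan array. The difference was 1.18 ± 0.35 (2.27-fold, 95% interval 0.36 to 2.00, adjusted p = 0.0992 by limma). Without furan replicate 42 the difference was 0.83 (adjusted p = 0.106). Counting these 4 with Serpina3m and Stat3, 6 acute phase genes had all furan arrays above all vehicle arrays, and 10.8% of everything tested did.

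The promoters of Saa1, Saa2, Saa3 and Lcn2 are shown because these 4 had the largest positive differences, none of which passed the test; that of Fgb, an acute phase gene of the coagulation group whose groups overlapped, is shown for contrast. Each is the stretch from 250 bases before to 50 after the annotated start, from RefSeq on GRCm38.p6, written 5′ to 3′ in gene orientation. Capitals mark matches to 5 short patterns searched on both strands: NF-kB (GGNNTTTCC), C/EBP (TTNNGCAA), STAT (TTCNNNGAA), the interleukin-6 element (CTGGGAA) and an HNF1 half-site (GTTAAT). The NF-kB pattern was shortened by 1 base after a longer form, with a further G in front, had matched none of the 5 windows.
Saa1, chr7:46742931-46743230 (minus strand): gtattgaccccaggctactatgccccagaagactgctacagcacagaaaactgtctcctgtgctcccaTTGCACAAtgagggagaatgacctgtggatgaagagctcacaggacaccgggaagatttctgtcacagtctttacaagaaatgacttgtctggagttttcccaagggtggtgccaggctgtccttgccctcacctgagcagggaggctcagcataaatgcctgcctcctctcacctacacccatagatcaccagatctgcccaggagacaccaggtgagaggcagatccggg
Saa2, chr7:46751583-46751882 (plus strand): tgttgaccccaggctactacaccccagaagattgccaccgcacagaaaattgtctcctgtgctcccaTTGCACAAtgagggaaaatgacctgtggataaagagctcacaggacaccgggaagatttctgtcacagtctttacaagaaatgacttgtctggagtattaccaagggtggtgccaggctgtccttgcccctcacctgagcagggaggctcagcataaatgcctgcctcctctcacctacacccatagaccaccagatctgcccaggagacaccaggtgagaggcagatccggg
Saa3, chr7:46715627-46715926 (minus strand): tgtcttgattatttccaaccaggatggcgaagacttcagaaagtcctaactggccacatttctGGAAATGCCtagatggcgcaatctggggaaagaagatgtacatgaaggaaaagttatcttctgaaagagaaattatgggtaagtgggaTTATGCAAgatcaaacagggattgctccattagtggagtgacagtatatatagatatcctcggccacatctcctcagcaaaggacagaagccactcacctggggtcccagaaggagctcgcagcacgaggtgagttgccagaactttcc
Lcn2, chr2:32387690-32387989 (minus strand): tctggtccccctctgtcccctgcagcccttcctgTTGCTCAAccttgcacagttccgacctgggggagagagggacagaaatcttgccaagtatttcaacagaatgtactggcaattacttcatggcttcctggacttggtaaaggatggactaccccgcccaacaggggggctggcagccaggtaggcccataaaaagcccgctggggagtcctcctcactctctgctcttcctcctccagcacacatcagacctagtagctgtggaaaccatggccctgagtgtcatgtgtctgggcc
Fgb, chr3:83049814-83050113 (minus strand): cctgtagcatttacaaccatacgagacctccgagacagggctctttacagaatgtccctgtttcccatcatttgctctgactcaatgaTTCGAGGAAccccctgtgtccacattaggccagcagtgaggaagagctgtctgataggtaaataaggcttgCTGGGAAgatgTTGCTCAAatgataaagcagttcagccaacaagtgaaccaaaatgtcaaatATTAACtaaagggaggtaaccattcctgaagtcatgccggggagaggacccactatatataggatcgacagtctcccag

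Saa1, Saa2, Saa3 and Lcn2 each held the C/EBP pattern, with its first base at positions -182, -183, -99 and -216 from the start. Saa3 alone of the 5 held the NF-kB pattern, at -187, and the remaining patterns had no match in the windows of these 4 genes. Aligned globally, the Saa1 and Saa2 promoters were identical at 287 of 301 columns, and Saa1 and Saa3 at 162 of 316. The Fgb promoter held C/EBP, STAT, interleukin-6 element and HNF1 matches, at -80, -162, -91 and -29. RefSeq promoters were found for 44 of the 59 genes, 47 windows in all. The C/EBP pattern was in 18 of the 47 (38.3%), against 10.8% of 32851 mouse promoters of that length. By system it was in 10 of 19 acute phase windows, 2 of 11 complement windows and 6 of 17 coagulation windows. The NF-kB pattern was in 3 of the 47, all acute phase windows, against 5.82% of all mouse promoters. The STAT pattern was in 19.1% of the members' windows against 8.30% of all, the interleukin-6 element in 14.9% against 11.1%, and the HNF1 half-site in 19.1% against 7.10%. These are matches of letters, not binding sites.

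Other acute phase proteins had differences near 0. Haptoglobin, the hemoglobin scavenger, was at 9.59, 9.75, 9.71 and 9.61 in furan livers, against 9.52, 9.92, 9.44 and 9.79 in vehicle livers, and the difference for Hp had a 95% interval of -0.29 to 0.29. Hpx, the heme carrier, differed by -0.03 ± 0.10. Both pentraxins, which bind bacterial and cell debris, overlapped between groups. Crp was at 4.63, 5.21, 4.84 and 4.92 in furan livers, against 4.88, 5.02, 4.85 and 4.91 in vehicle livers, and Apcs, the main pentraxin of the mouse acute phase, differed by -0.04 ± 0.14. Ceruloplasmin, the copper-carrying ferroxidase, differed by 0.23 ± 0.10 for Cp with an interval of -0.01 to 0.47.

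The orosomucoids, lipocalins that bind drugs and steroids, had negative differences in 3 of 3 genes, and in 1 of 3 under the median shift. Orm1 was at 6.23, 6.34, 5.83 and 5.99 in furan livers, against 6.32, 6.63, 6.23 and 6.23 in vehicle livers. Orm3 was at -0.36, -0.18, -0.99 and -0.71 in furan livers, against 0.42, 0.19, -0.31 and -0.04 in vehicle livers. Both sets overlapped, and the differences were -0.25 ± 0.15 for Orm1, -0.25 ± 0.16 for Orm2 and -0.62 ± 0.22 for Orm3 (adjusted p = 0.146 by limma for Orm3). These 3 are close copies in a cluster, and their probes may share transcripts.

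Lbp, which hands bacterial lipopolysaccharide to CD14, was the only acute phase gene with all furan arrays below all vehicle arrays, where 7.33% of everything tested had that order. It was at 3.92, 4.19, 4.22 and 3.95 in furan livers, against 4.49, 4.92, 4.42 and 4.24 in vehicle livers. The difference was -0.45 ± 0.16 (adjusted p = 0.148 by limma). The inhibitors of the Serpina3 cluster, relatives of antichymotrypsin that may also cross-hybridise, had small positive differences in 3 of 3, and in 2 of 3 in the authors' deposited table. Serpina3m was at 7.55, 7.59, 7.53 and 7.49 in furan livers, against 7.15, 7.41, 7.26 and 7.42 in vehicle livers. Its difference of 0.23 ± 0.09 came without overlap, whereas Serpina3n differed by 0.17 ± 0.13 and Serpina3k by 0.05 ± 0.17. The inter-alpha inhibitor chains, which bind hyaluronan, differed by 0.09 ± 0.10 for Itih3 and -0.11 ± 0.11 for Itih4.

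Of the signalling genes, Stat3, the transcription factor activated by interleukin-6 receptors, was at 4.83, 5.12, 5.03 and 4.64 in furan livers, against 4.39, 4.62, 4.52 and 4.50 in vehicle livers. The groups did not overlap and differed by 0.40 ± 0.12 (1.32-fold, adjusted p = 0.106 by limma). A second, dimmer Stat3 probe gave 0.28 ± 0.23 with overlapping groups. Socs3, the feedback inhibitor that STAT3 itself induces, was at 1.74, 2.26, 2.45 and 1.62 in furan livers, against 2.08, 1.98, 2.26 and 1.43 in vehicle livers. The Socs3 ranges overlapped, and the interval of -0.49 to 0.64 was wide. Il1r1, the signalling receptor of interleukin-1, differed by -0.03 ± 0.16.

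**Figure D2:**
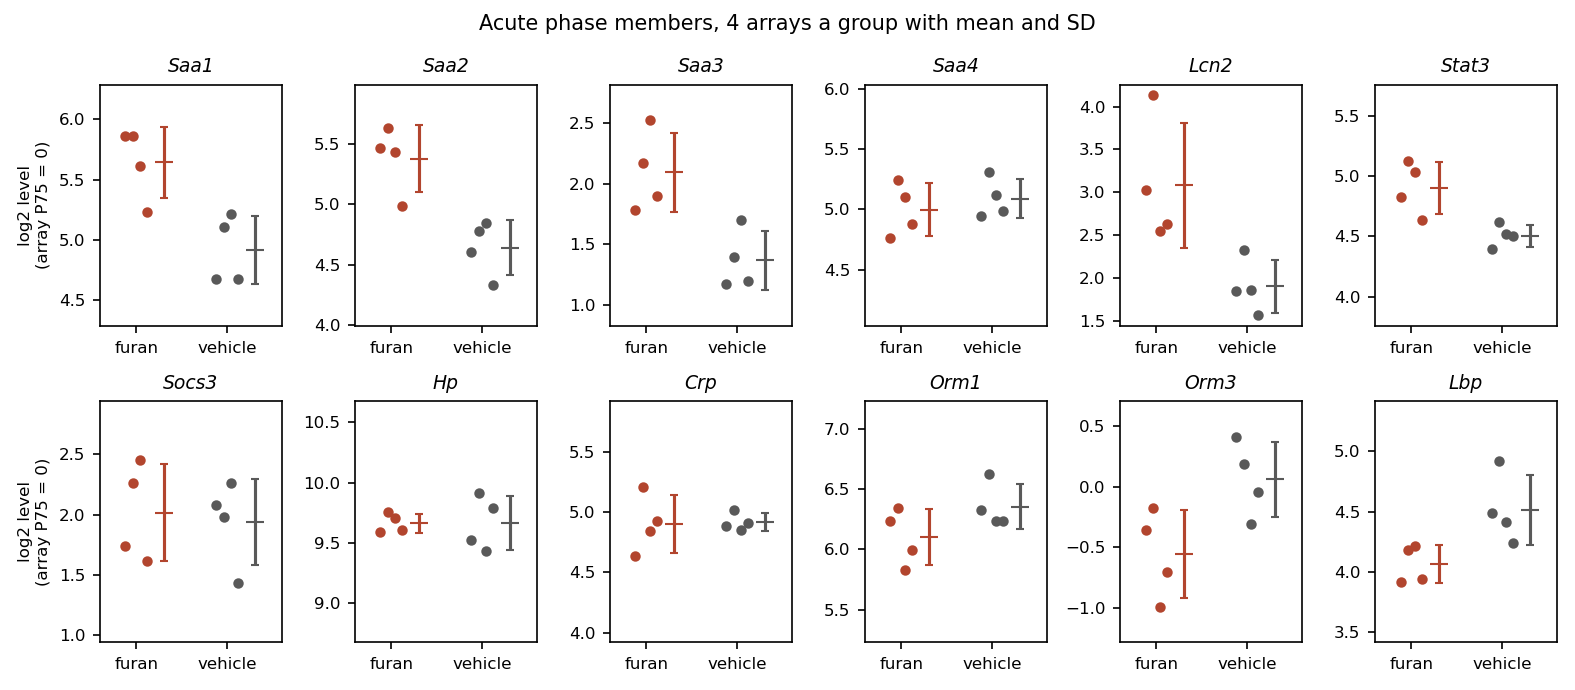
Level on each array (log2 intensity minus the array's 75th percentile, y axis) of 12 acute phase genes, furan left and vehicle right, with mean ± SD (n = 4 each). The 4 furan points lie above the 4 vehicle points for Saa1, Saa2, Saa3, Lcn2 and Stat3 and below them for Lbp, and the groups overlap for the others.

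Among the complement genes 12 of 16 differences were negative, against 15002 of all 24924. Of the 16, 10 lay below the median of everything tested, against 13 with quantile normalisation, 12 with normexp correction and 15 in the authors' deposited table. The range ran from -0.38 to 0.18. Serping1, the C1 inhibitor that also blocks kallikrein and factor XII, was at 8.21, 8.24, 8.02 and 8.16 in furan livers, against 8.48, 8.67, 8.53 and 8.44 in vehicle livers. The groups did not overlap, and the difference was -0.38 ± 0.09 (1.30-fold lower, adjusted p = 0.0613 by limma). A further Serping1 probe gave -0.29.

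The components of the C3 convertases, the enzymes that cleave C3, had negative differences in 4 of 4 genes, from -0.32 to -0.12. They were negative in 4 of 4 too with quantile normalisation, with normexp correction and in the authors' deposited table, and positive in 4 of 4 under the median shift and in 1 of 4 with no shift. C2, the classical and lectin pathway protease, was at 6.25, 6.24, 6.30 and 6.22 in furan livers, against 6.40, 6.64, 6.57 and 6.51 in vehicle livers. Its groups were separate, at -0.28 ± 0.08 (adjusted p = 0.0978 by limma). Cfb, its alternative pathway counterpart, was at 8.12, 8.16, 8.25 and 8.25 in furan livers, against 8.25, 8.62, 8.38 and 8.58 in vehicle livers. The Cfb ranges met at 8.25 and the difference was -0.26 ± 0.11 (adjusted p = 0.189). C4b was at 7.69, 7.57, 7.68 and 7.59 in furan livers, against 7.93, 8.19, 7.58 and 8.09 in vehicle livers, and vehicle replicate 4 lay within the furan range. C3, the central component, was at 10.02, 10.23, 10.10 and 10.05 in furan livers, against 10.01, 10.39, 10.11 and 10.37 in vehicle livers, and differed by -0.12 ± 0.11.

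The other complement roles overlapped throughout. In the lectin pathway, the mannose-binding lectin Mbl1 was at 4.84, 4.93, 5.12 and 4.80 in furan livers, against 5.67, 5.31, 5.00 and 4.80 in vehicle livers. The vehicle arrays of Mbl1 spread widely, and the difference of -0.27 ± 0.19 was within that spread. Its relative Mbl2 differed by 0.06, and the proteases that the lectins activate by -0.13 for Masp1 and -0.11 for Masp2. The 6 terminal components, which build the membrane pore, differed by -0.16 to 0.18. C9, the pore-forming subunit, was at 1.69, 2.12, 1.85 and 1.77 in furan livers, against 1.70, 1.92, 1.65 and 1.44 in vehicle livers. C5, whose cleavage opens the terminal route, differed by -0.07 ± 0.11, C6 by -0.03 ± 0.23, C8b by 0.08 and C8g by -0.14. C8a, with -0.16 from its brightest probe, had 0.36 from a second probe, so its direction is not settled. Cfi, the protease that inactivates C3b, differed by 0.12 ± 0.10.

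In the coagulation group the differences lay between -0.53 and 0.06, and 16 of 20 were negative, against 15002 of all 24924. Of the 20, 12 lay below the median of everything tested, against 19 with quantile normalisation, 17 with normexp correction and 20 in the authors' deposited table. In this group 6 genes had all furan arrays below all vehicle arrays, an order that 7.33% of everything tested had. F7, the protease that starts the tissue factor pathway, was at 4.78, 4.73, 4.87 and 4.88 in furan livers, against 5.04, 5.68, 5.12 and 5.55 in vehicle livers. The groups were separate, with a difference of -0.53 ± 0.16 (1.45-fold lower, adjusted p = 0.0942 by limma). A second F7 probe read 4.74, 4.71, 4.80 and -0.47 in furan livers, against 5.12, 5.59, 5.16 and 5.49 in vehicle livers. It ran the same way on all arrays, with 1 furan spot far below the others.

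The anticoagulant pair of protein C, which inactivates factors V and VIII, and its cofactor protein S had lower values in both members, with the sign turned under the median shift. Proc was at 8.31, 8.25, 8.30 and 8.34 in furan livers, against 8.54, 8.78, 8.54 and 8.74 in vehicle livers, a difference of -0.35 ± 0.09 (adjusted p = 0.0686 by limma). Pros1 was at 2.04, 2.27, 2.13 and 1.92 in furan livers, against 2.46, 2.49, 2.43 and 2.35 in vehicle livers, a difference of -0.35 ± 0.10 (adjusted p = 0.0864). Neither pair of groups overlapped. With F7, these are 3 of the 7 vitamin K-dependent genes, whose products need gamma-carboxylation. The other 4 differed by less: F2, the prothrombin gene, was at 8.61, 8.60, 8.65 and 8.68 in furan livers, against 8.52, 8.87, 8.70 and 8.90 in vehicle livers. F9 differed by 0.06, F10 by -0.12 and Proz by -0.02.

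The contact system starts clotting on negatively charged surfaces and releases bradykinin. All 4 of its genes had negative differences, against 3 under quantile normalisation, with or without the normexp correction, 2 with no shift and 0 under the median shift. Klkb1, plasma prekallikrein, was at 6.30, 6.21, 6.21 and 6.21 in furan livers, against 6.43, 6.80, 6.60 and 6.58 in vehicle livers, a separation of -0.37 ± 0.10 (1.29-fold lower, adjusted p = 0.0757 by limma). F11, the zymogen that activates factor IX, was at 4.46, 4.49, 4.56 and 4.39 in furan livers, against 4.63, 5.13, 4.65 and 4.74 in vehicle livers, a separation of -0.31 ± 0.12 (adjusted p = 0.182). F12 differed by -0.12 and Kng1, which may share transcripts with its copy Kng2, by -0.05. F5, the cofactor of factor Xa, was at 5.56, 5.57, 5.57 and 5.61 in furan livers, against 5.81, 5.95, 5.71 and 6.04 in vehicle livers. Its groups were separate, at -0.30 ± 0.09 (adjusted p = 0.106), and a further F5 probe gave -0.45.

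Fibrinogen, the substrate of thrombin, showed no separation in any of its 3 chains. Fgb was at 9.77, 9.99, 9.98 and 9.76 in furan livers, against 9.89, 10.20, 9.85 and 10.09 in vehicle livers. Fgg was at 9.40, 9.80, 9.49 and 9.43 in furan livers, against 9.41, 9.72, 9.51 and 9.63 in vehicle livers. The differences were -0.13 ± 0.11 for Fgb, -0.04 ± 0.12 for Fgg and 0.05 ± 0.13 for Fga. A second Fga probe gave 0.42. The coagulation serpins lay close to 0: antithrombin, which blocks thrombin and factor Xa, was at 9.14, 9.18, 8.98 and 9.04 for Serpinc1 in furan livers, against 8.95, 9.31, 9.15 and 9.27 in vehicle livers. Serpind1, heparin cofactor II, differed by 0.04 and Serpinf2, the plasmin inhibitor, by 0.01. Plg, the plasmin precursor, was at 7.98, 7.98, 8.13 and 7.99 in furan livers, against 8.25, 8.38, 8.06 and 8.17 in vehicle livers. Its groups overlapped, with a difference of -0.19 ± 0.10, and F13b, the carrier subunit of the fibrin-linking transglutaminase, differed by -0.10.

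**Figure D3:**
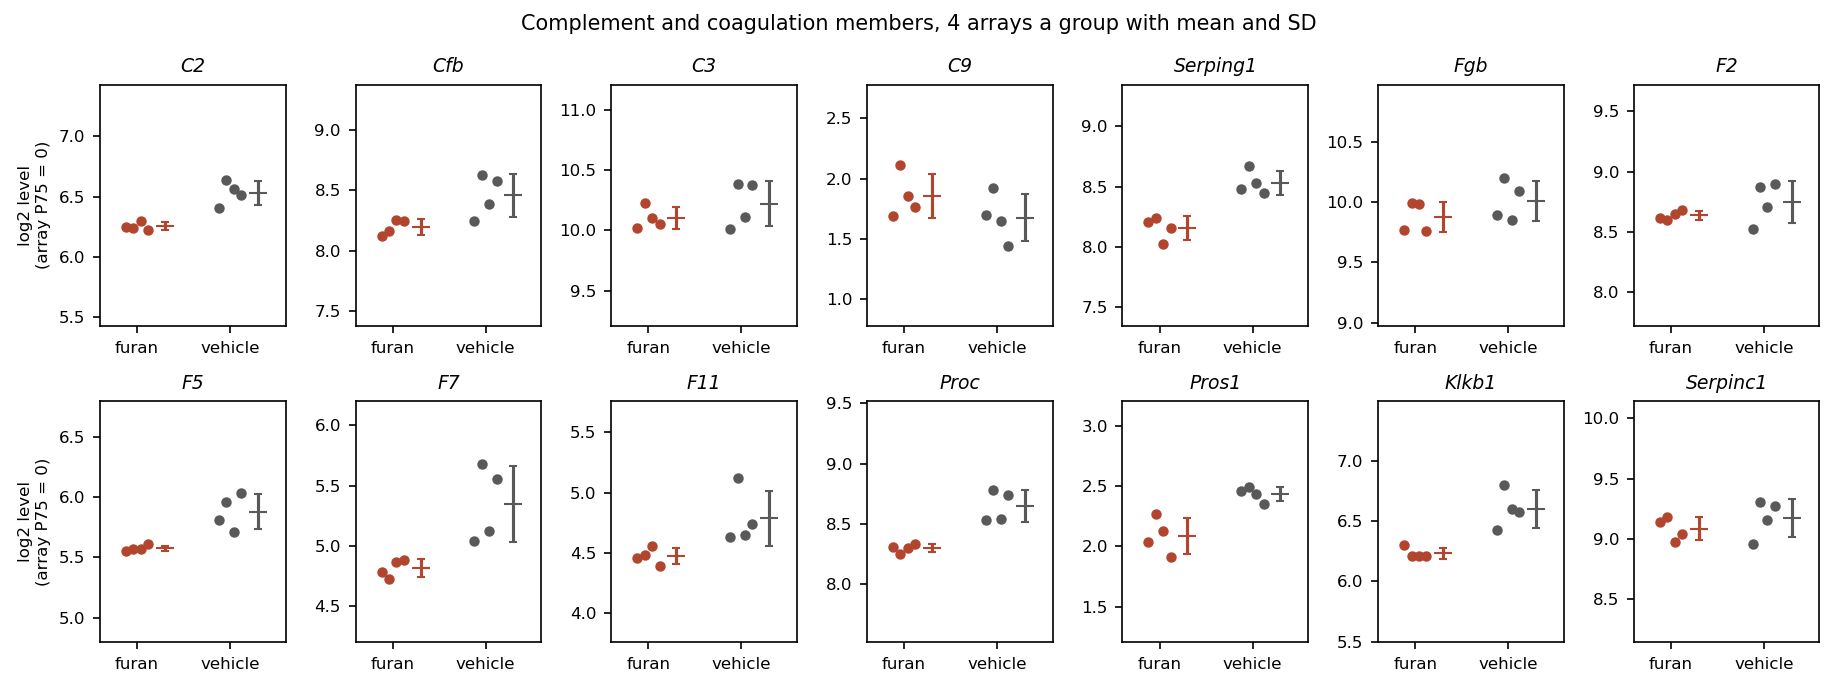
Level on each array (log2 intensity minus the array's 75th percentile, y axis) of 14 complement and coagulation genes, furan left and vehicle right, with mean ± SD (n = 4 each). The furan points lie below all vehicle points for C2, Serping1, F5, F7, F11, Proc, Pros1 and Klkb1, and overlap them for C3, C9, Cfb, Fgb, F2 and Serpinc1.

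Set side by side, the acute phase genes had a median difference of 0.03, the complement genes -0.12 and the coagulation genes -0.11. The median was -0.09 over everything tested and -0.01 over the 15076 with a symbol. In the authors' deposited table the medians of the systems, in the same order, were -0.08, -0.22 and -0.22, so that of the acute phase genes turned negative. The acute phase set split evenly, with 11 positive and 11 negative differences, and spread the widest, from -0.62 to 1.18. The 6 members with furan arrays wholly above vehicle arrays, as 10.8% of everything tested had, were acute phase genes. Of the 9 wholly below, as 7.33% of everything tested had, 1 was an acute phase gene, 2 were complement genes and 6 were coagulation genes. The intervals lay within 1.5-fold for 12 of 22 acute phase, 11 of 16 complement and 17 of 20 coagulation genes, and for 11584 of all 24924. The difference between the systems was not tested.

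Vehicle replicate 3 stood above the other vehicle arrays. It was the highest of the 4 vehicle arrays for 45 of the 58 members and the lowest for 0. Its median deviation from the vehicle mean was 0.21 in the acute phase, 0.17 in the complement and 0.15 in the coagulation genes. Over everything tested its median deviation was -0.0011. Among the furan arrays, replicate 42 was the highest for 31 of the 58, with a median deviation of 0.19 in the acute phase genes. Without vehicle replicate 3 the medians of the acute phase, complement and coagulation genes were 0.09, -0.06 and -0.06. In that fit 31 of 58 differences were negative, against 39 with all arrays. The members wholly below the vehicle arrays came nearer to 0 and kept their signs: without vehicle replicate 3 the differences were -0.28 for F5, -0.33 for Serping1, -0.24 for C2, -0.43 for F7, -0.20 for F11, -0.30 for Proc, -0.33 for Pros1, -0.30 for Klkb1 and -0.31 for Lbp. Saa1, Saa2, Saa3 and Lcn2 stood at 0.79, 0.78, 0.74 and 1.32. The vehicle arrays spread more than the furan arrays in 15 of 16 complement and 16 of 20 coagulation genes, and in 11 of 22 acute phase genes. Over everything tested the vehicle arrays also spread more, with a median SD of 0.22 against 0.18 in the furan arrays.

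**Figure D4:**
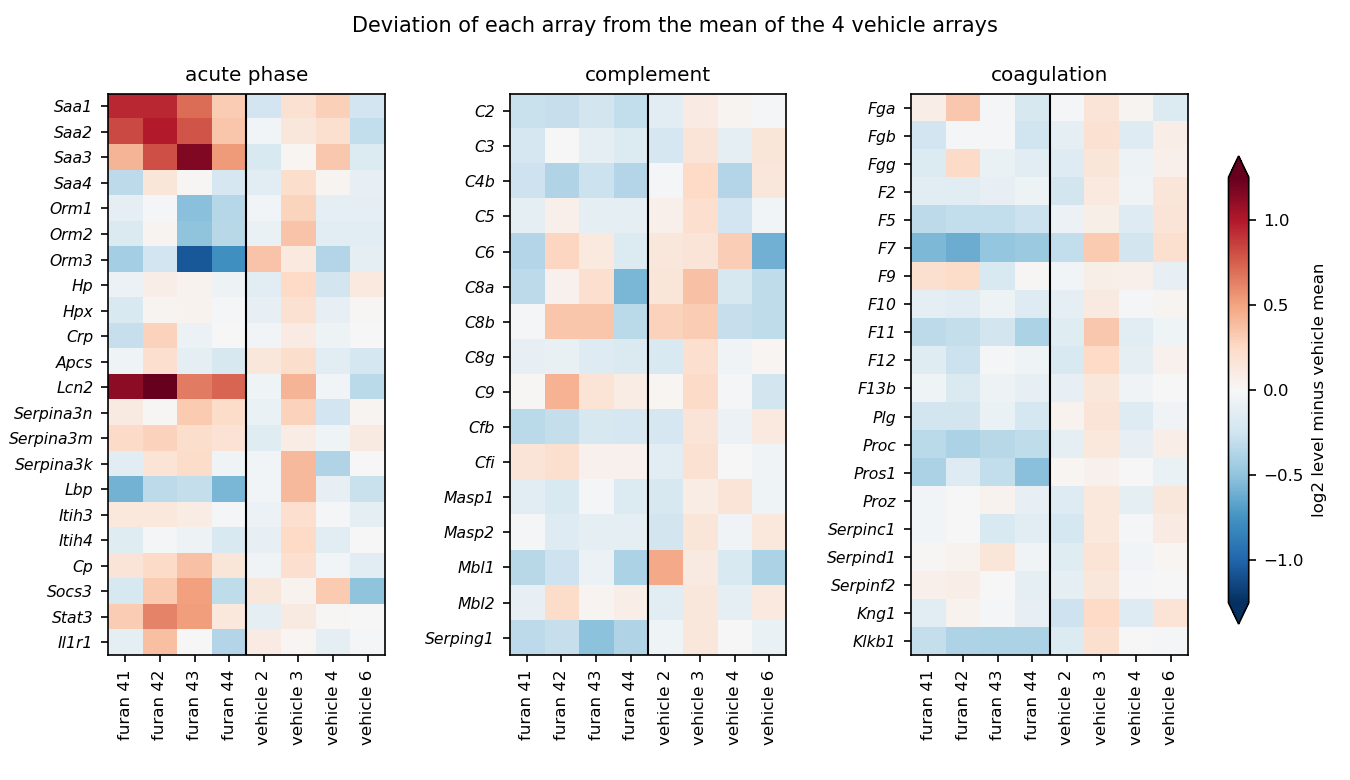
Level of each of the 58 members on each array minus its vehicle mean (log2, colour), furan columns left and vehicle columns right of the line. Saa1, Saa2, Saa3 and Lcn2 are above the vehicle mean on all 4 furan arrays, and the column of vehicle replicate 3 is above it for most genes.

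Wider lists from the same pathways were read against the 4.18% of everything tested that passed (2.86% higher and 1.31% lower). Of 23 measured genes of interleukin-6, interleukin-1 and STAT3 signalling and liver transcription factors, 0 passed, with a median of -0.03. Il6ra, the interleukin-6 receptor, differed by -0.01 ± 0.23, Cebpb by 0.21 ± 0.14 and Cebpd by -0.19 ± 0.19. Of 22 further complement and 23 further coagulation genes 0 passed, with medians of -0.16 and -0.04. Among 19 further positive and negative acute phase genes 1 rose and 0 fell. This was Steap4, a metalloreductase that takes part in iron and copper uptake, at 1.46, 1.62, 1.61 and 1.43 in furan livers, against 0.85, 1.10, 1.12 and 0.99 in vehicle livers. Its difference was 0.51 ± 0.10 (adjusted p = 0.0312 by limma), and the call held in 10 of 22 alternatives, with adjusted p from 0.0109 to 0.483.

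Marker lists of liver and blood cells were read by their log2 summed level on each array. The brightest probes weigh most in such a sum, so a change in a dim marker can go unseen. Neutrophils carry Lcn2 in their granules: 4 of 10 neutrophil markers were measured, and their level was 1.52 to 2.00 in furan livers and 1.55 to 1.95 in vehicle livers. The 4 were S100a8, S100a9, Camp and Elane, each well above background on all 8 arrays. Ngp, Retnlg, Ltf, Mmp8 and Mpo were well above background on 3, 3, 2, 2 and 1 arrays, and Ly6g had no probe paired with it here. Of the Kupffer cell and macrophage markers 9 of 10 were measured, at 7.26 to 7.61 in furan livers and 7.04 to 8.35 in vehicle livers. Hepatocyte markers were at 11.78 to 11.95 in furan livers and 11.70 to 12.22 in vehicle livers. Sinusoidal endothelial markers, 8 of 8 measured, were at 6.22 to 6.49 in furan livers and 6.49 to 6.77 in vehicle livers, narrowly without overlap and with 6 of 8 differences negative. Stellate cell markers, 8 of 8 measured, were at 6.62 to 6.81 in furan livers and 6.46 to 6.93 in vehicle livers, and bile duct markers, 5 of 6 measured, at 0.75 to 1.19 in furan livers and 0.79 to 1.74 in vehicle livers. No marker in these lists passed the test. The part of cell composition in the results was not tested.

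The calls on the members depended on how the arrays were scaled and modelled. The authors' deposited value table, fitted in the same way with limma, gave 9 of 58 members past an adjusted p of 0.05, all lower in furan livers: Lbp, C2, Cfb, Serping1, F5, F7, Proc, Pros1 and Klkb1. In that fit Klkb1 differed by -0.47 (adjusted p = 0.00986) and F7 by -0.64 (adjusted p = 0.0132), and 6.7% of everything tested passed. With a variance trend and robust moderation, 10 members passed: Saa1, Saa2, Saa3 and Lcn2 higher and C2, Serping1, F7, Proc, Pros1 and Klkb1 lower, where 8.02% of everything tested passed. With array weights 6 members passed, where 8.21% of everything tested did. With normexp background correction followed by quantile normalisation 5 did, against 5.23%. The filter on all 8 arrays gave 4 members against 8.17% of everything tested, quantile normalisation 3 against 3.64%, and the slide row as a block 2, Saa1 and Saa2, against 3.25%.

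No member passed in the other settings. The share of everything tested that passed was 0.345% under the median shift, 1.05% with no shift, 0.44% with no filter on dim probes, 4.15% with outlier-marked spots kept, 3.62% with the mean of a gene's probes and 0.405% at an adjusted p under 0.01. With the slide column as a block, 0 of 58 members and 0.0% of everything tested passed in limma. In that fit 15 of 58 members and 18.9% of everything tested had an unadjusted p under 0.05. Leaving out 1 array at a time also left 0 of 58 members past the threshold. In those fits the share of everything tested was 0.782%, 0.983%, 0.782% and 1.04% without furan replicates 41, 42, 43 and 44, and 3.72%, 1.61%, 1.23% and 1.18% without vehicle replicates 2, 3, 4 and 6.

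**Figure D5:**
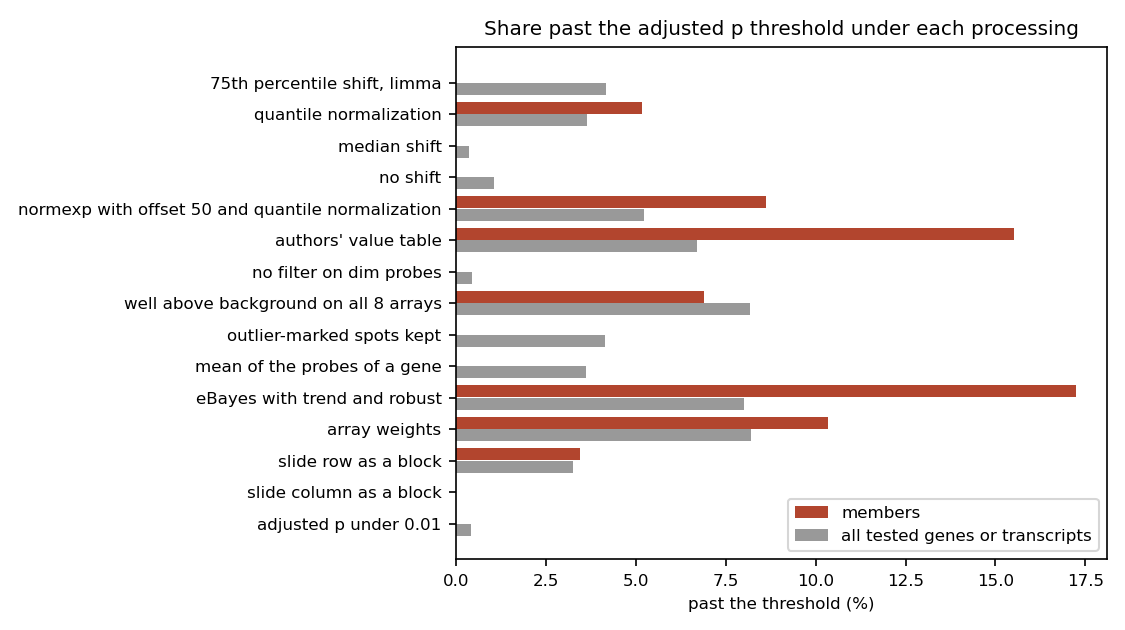
Percentage past the threshold (x axis) among the 58 members and among everything tested, for the values as reported and for 14 alternatives. The bars of the members are longer than those of everything tested by most under the authors' value table, where 9 of 58 passed, and under the trended, robust fit, where 10 did.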

How the data were processed

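Liver RNA of 4 furan and 4 vehicle mice was measured on Agilent SurePrint G3 one-colour arrays (Cy3), with 62976 spots each. The deposited scanner files, per the file headers, were made with Feature Extraction 11.0.1.1 and hold background-corrected intensity values per spot. The authors' deposited value table holds log2 values of unstated normalisation, and it served as an alternative. From the deposited intensity values, control and outlier-marked spots were dropped, and log2 intensity minus each array's 75th percentile was taken. Spots of a probe were averaged, probes well above background on 4 or more arrays were kept, and the brightest probe stood for its gene. RefSeq accessions were paired with symbols through a GRCm38.p6 table (27235 of 28685 probes). C5 was found under its current symbol Hc. limma 3.58.1 in R 4.3.3 was fitted over all 24924 genes or transcripts, 2-sided, with Benjamini-Hochberg adjustment at 0.05, and was tested on simulated data. There it recovered 17 of 67 changes of 1.5-fold, 38 of 67 of 2-fold and 51 of 66 of 4-fold, with 6 false calls. Many differences of 1.5-fold would thus be missed with 4 arrays a group. The labels name a randomised block design without saying which mice share a block, so none was fitted. Values on every array are given for the largest differences in each system and for a list of well-known members. The members, lists and tests were chosen with earlier results of these data known. Alternatives covered scaling, background correction, filters, probe choice, variance model, slide position and each array left out. No column belongs to samples of another series.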

Additional observations from a re-analysis of the deposited data

Results flagged for a closer look

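In 4 of 116 groups of 4 arrays, 1 array lay apart from the other 3 by more of the group's range than Dixon's 95% limit allows, and chance alone gives about 1 such group in 20. Furan replicate 42 had C5 at 8.05, with the other furan arrays at 7.87. Furan replicate 43 had Plg at 8.13, with the other furan arrays at 7.98 to 7.99. Furan replicate 41 had Klkb1 at 6.30, with the other furan arrays at 6.21. Vehicle replicate 3 had Orm2 at 7.24, with the other vehicle arrays at 6.74 to 6.80.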

How the results depend on the processing

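With 4 arrays a group, differences in dim or variable genes have wide intervals, and the scaling of the arrays sets the sign of small ones. Against 1041 as reported, the number of genes or transcripts past the threshold was 86 with the median shift, 261 with no shift, 1669 in the authors' table, 163 with no filter on dim probes, 1740 with the filter on all 8 arrays, 2000 with trended and robust moderation, 2047 with array weights, 0 with the slide column as a block and 101 at an adjusted p under 0.01. With the slide column as a block, 15 of 58 members and 18.9% of everything tested had an unadjusted p under 0.05. Leaving out each array in turn gave 195 to 928, and 0 members. Against 0 members as reported, 3 passed with quantile normalisation (F7, Proc, Klkb1, all lower) and 5 with normexp followed by quantile normalisation (Lbp, C2, F7, Pros1, Klkb1, all lower). Further, 9 passed in the authors' table, 4 with the all-array filter (Saa1, Saa2 and Saa3 higher, Serping1 lower) and 10 with trended and robust moderation. With array weights 6 passed (Saa2 higher, and C2, Serping1, F7, Proc and Klkb1 lower), and 2 (Saa1, Saa2, higher) blocked on slide row. The median of the acute phase genes was 0.51 with the median shift and 0.15 with no shift, that of the complement genes 0.36 and 0.0021, and that of the coagulation genes 0.37 and 0.012, with -0.22 in the authors' table. Under the median shift the sign turned for 37 of 58 members, and 0 members passed. Among them were Lbp (0.037), Cfb (0.22), Serping1 (0.11), C2 (0.21), F5 (0.18), F11 (0.17), Klkb1 (0.12), Proc (0.14) and Pros1 (0.14). Of the 9 genes wholly below the vehicle arrays, F7 alone stayed negative (-0.049). The median shift adds the same 0.49 to every gene's difference, and no shift adds 0.13, so these sign changes follow from the scaling itself. The causes of the other changes were not tested. The groups share no replicate number, so numbers pair no arrays, and the slide column fit pairs them by position alone.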
